A study of Mus musculus with 19 samples.

Results

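The genes that make, use and carry ketone bodies were followed in the livers of mice with methylmalonic aciduria. The set holds 7 of the 19505 genes analysed. The product of *Bdh1* interconverts the 2 main ketone bodies, and that of *Bdh2* can oxidize beta-hydroxybutyrate. The products of *Oxct1* and *Aacs* activate acetoacetate for use, and *Slc16a1*, *Slc16a6* and *Slc16a7* are monocarboxylate transporter genes. All 7 genes were chosen by name for their role, with earlier results of these data known. Liver RNA of 10 *Mmut*-ko/ki mice (mutants) and of 9 *Mmut*-ki/wt mice (controls) was hybridized to Mouse Clariom S arrays, 1 array and 1 mouse per replicate. All mice were males of strain C57BL/6N, 20 weeks old according to the sample labels, although the study's figure legends give other ages. Controls carried 1 wild-type allele and 1 knock-in allele (ki) coding for MMUT-p.Met700Lys, and mutants carried the same knock-in allele opposite a knockout allele, so both genotypes share the knock-in allele and no mouse had 2 wild-type alleles. The alleles are constitutive and act in every tissue, and both genotypes had free access to the same high-protein diet from early in life. *Mmut* codes for the mitochondrial enzyme that converts methylmalonyl-CoA to succinyl-CoA.

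Ketone bodies are made in the mitochondria of hepatocytes from the acetyl-CoA of fatty acid oxidation and leave the liver through monocarboxylate transporters. BDH1 reduces acetoacetate to beta-hydroxybutyrate in the mitochondrion, and other organs reverse this step and use OXCT1 to draw acetyl-CoA from acetoacetate. Liver is known for very little OXCT1, which leaves its ketone bodies for export, while AACS in the cytosol returns acetoacetate to the synthesis of lipids and sterols.

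Values are log2 signals, so a difference of 1 is a 2-fold change. Rose, fell and changed are used for an adjusted p under 0.05 in limma, with the Benjamini-Hochberg adjustment taken over all 19505 genes. *Mmut* itself fell from 13.20 ± 0.23 (SD, n = 9) in controls to 11.54 ± 0.25 (SD, n = 10) in mutants, and all 10 mutants lay below every control. The position of its probes relative to the knocked-out sequence was not examined. Between 68.0% and 72.7% of probe sets in controls and between 69.8% and 77.1% in mutants were detected. All 9 hepatocyte markers measured were detected on every array, with a list mean between 18.5 and 18.6 in both genotypes, and 0 passed the test. *Alb*, *Apoa1*, *Ttr* and *Serpina1a* had group means from 19.89 to 19.91, near the highest value of any probe set (19.93), where a change may not show, so neither the count nor the list mean measures the share of hepatocytes. Of 7 Kupffer cell and macrophage markers, all detected on every array, 4 rose (*Adgre1*, *Clec4f*, *Cd5l* and *Vsig4*), where 4.73% of all genes rose. The list mean of these 7 markers was 8.76 to 9.72 in controls and 9.24 to 10.7 in mutants. *Clec4g*, 1 of 7 liver endothelial markers, rose, and *Reln* (1 of 8 stellate cell markers), *Sox9* (1 of 5 cholangiocyte markers), *Cd4* (1 of 7 lymphocyte markers) and *Alas2* (1 of 2 erythroid markers) fell. No neutrophil, adipocyte or muscle marker passed the test among 5, 7 and 8 measured. For all these marker counts, the shares over all genes were 4.73% that rose, 5.33% that fell and 10.1% in either direction. *Krt19* (cholangiocytes), *Camp* (neutrophils), *Adipoq*, *Lep* and *Ucp1* (adipocytes) and *Myh4* (muscle) were detected on no array. The part of these cell types in the results that follow was not tested, and in RNA of whole liver a change in the number of cells of a type cannot be told apart from a change in RNA per cell.

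Of the 7 ketone body genes, 2 rose (*Bdh1* and *Slc16a7*), 2 fell (*Bdh2* and *Slc16a6*) and no call was made for the other 3. Across all genes, 4.73% rose, 5.33% fell and 10.1% passed in either direction. The median difference was -0.10 over the 7 genes and 0.00 over all genes. Each gene has 1 probe set, detected on all 19 arrays. Levels of different genes come from different probes and are not set against each other.

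**Figure D1:**
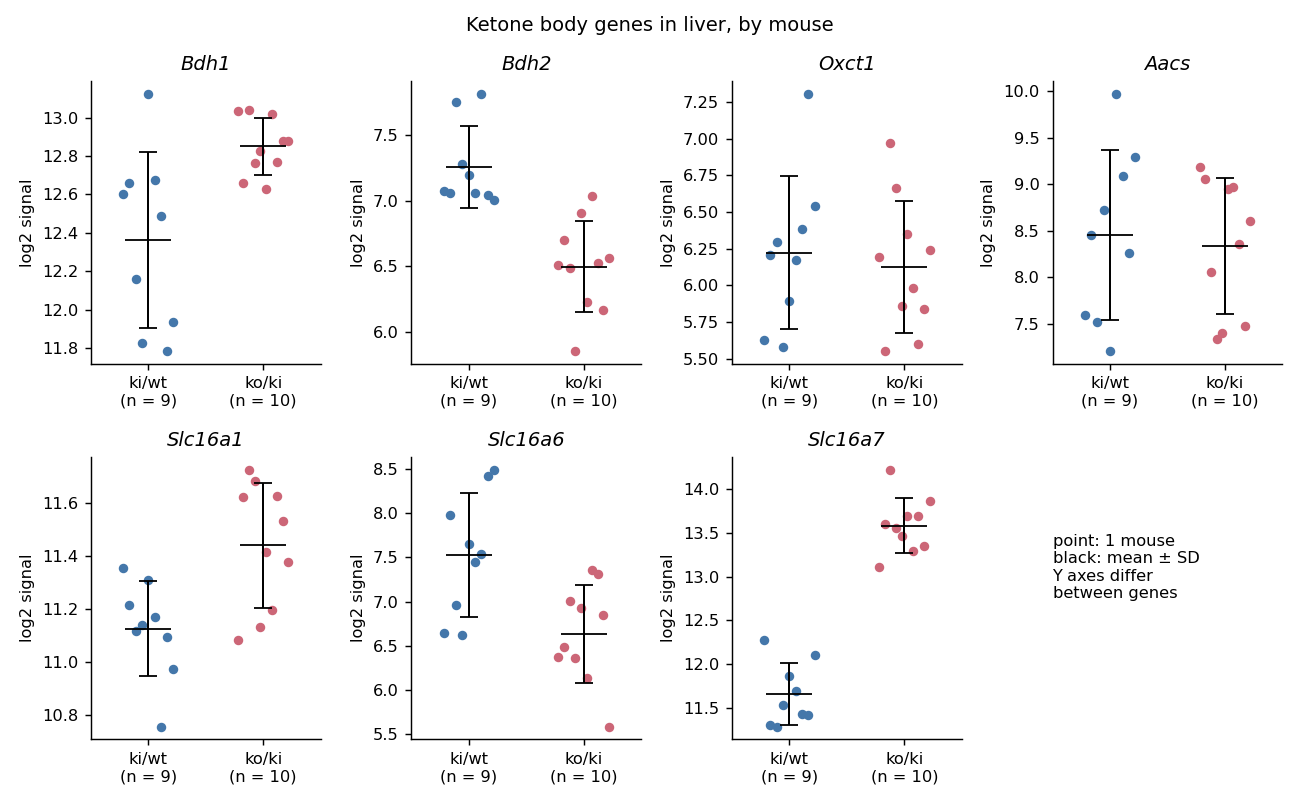
Log2 signal of each of the 7 genes (y axis) in the 9 control (ki/wt) and 10 mutant (ko/ki) livers, 1 point per mouse, with the mean and SD in black and a separate y axis for each gene. *Slc16a7* separates the genotypes without overlap, *Bdh2* overlaps by 1 mutant, and *Oxct1* and *Aacs* overlap over most of their range.

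The promoter windows that follow are shown because *Bdh1* and *Bdh2* moved in opposite directions and *Slc16a1* is the transporter for which a window could be matched. Each is the 250 bases before an annotated start of the gene, from RefSeq on GRCm38.p6, plus strand and 5′ to 3′. The *Bdh1* windows lie at chr16:31422047-31422296 and chr16:31428503-31428752, that of *Bdh2* at chr3:135280971-135281220 and that of *Slc16a1* at chr3:104638414-104638663. Capitals mark matches on either strand to a nuclear receptor half-site (AGGTCA or GGGTCA) or to an E-box (CACGTG), and in *Slc16a1* 1 match of each overlaps.
Bdh1 window 1: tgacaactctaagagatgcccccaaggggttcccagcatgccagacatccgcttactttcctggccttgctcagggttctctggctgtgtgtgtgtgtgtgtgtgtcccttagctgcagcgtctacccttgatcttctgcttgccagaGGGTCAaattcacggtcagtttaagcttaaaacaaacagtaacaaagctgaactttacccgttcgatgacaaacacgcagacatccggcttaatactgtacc
Bdh1 window 2: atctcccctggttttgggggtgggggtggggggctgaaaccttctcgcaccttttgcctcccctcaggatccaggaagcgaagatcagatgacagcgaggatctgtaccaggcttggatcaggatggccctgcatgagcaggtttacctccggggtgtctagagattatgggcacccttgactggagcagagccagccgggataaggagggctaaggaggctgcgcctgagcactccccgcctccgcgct
Bdh2: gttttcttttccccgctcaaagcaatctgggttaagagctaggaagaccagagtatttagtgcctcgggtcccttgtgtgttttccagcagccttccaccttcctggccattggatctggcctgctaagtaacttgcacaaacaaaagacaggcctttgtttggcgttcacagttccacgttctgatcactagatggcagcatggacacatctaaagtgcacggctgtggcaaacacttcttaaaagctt
Slc16a1: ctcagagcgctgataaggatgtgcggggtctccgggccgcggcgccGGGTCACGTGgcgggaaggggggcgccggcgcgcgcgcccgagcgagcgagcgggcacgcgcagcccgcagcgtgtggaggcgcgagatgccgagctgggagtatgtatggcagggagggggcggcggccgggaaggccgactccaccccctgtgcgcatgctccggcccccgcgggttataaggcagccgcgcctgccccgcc

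In all, 5 of the 7 genes were matched to 6 windows. *Slc16a6* and *Slc16a7* are named only. A half-site was found in *Bdh1* window 1 (positions -102 to -97 from the start), in *Oxct1* and in *Slc16a1*, and by comparison 23.8% of all 32851 windows of this length hold one. None of the 6 held 2 half-sites as a direct repeat with 1 base between them (AGGTCANAGGTCA, both strands), which 0.0335% of all windows hold. The E-box of *Slc16a1* is a motif found in 6.02% of all windows. These matches describe letters in a window and are not measurements of binding.

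The pair of beta-hydroxybutyrate dehydrogenase genes moved apart. *Bdh1*, whose mitochondrial product carries out the last step of hepatic ketogenesis, ran from 11.79 through a median of 12.49 to 13.12 in controls and from 12.63 through 12.85 to 13.04 in mutants. The mutants lay inside the range of the controls, none above the highest control and all 10 above the control median. The mean rose from 12.36 ± 0.46 (SD, n = 9) to 12.85 ± 0.15 (SD, n = 10), a difference of 0.49 on the log2 scale (SE 0.15, 1.40-fold, 95% interval 1.13 to 1.73, limma adjusted p = 0.0354, two-sided exact permutation p = 0.00470). Controls thus spread more widely than mutants, with 3 arrays from 11.79 to 11.94, and the difference in spread was not tested. The call was lost with the methods' t-test, the methods' Wilcoxon test, median centring and a block on the replicate number (adjusted p 0.0522 to 0.0838), and also when control 3, 4, 8 or 9, or mutant 1, 3, 7, 9 or 10, was left out (adjusted p 0.0519 to 0.0806).

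*Bdh2* codes for a cytosolic enzyme of the short-chain dehydrogenase family that can oxidize beta-hydroxybutyrate and has been proposed, in mice, to take part in making an iron-binding siderophore. Its signal ran from 7.00 through a median of 7.07 to 7.81 in controls and from 5.86 through 6.52 to 7.03 in mutants. The groups overlapped by a single mutant, with 9 of 10 mutants below every control. The mean fell from 7.25 ± 0.31 (SD, n = 9) to 6.50 ± 0.35 (SD, n = 10), so that control signal was 1.69-fold that of mutants (95% interval 1.36 to 2.08, log2 difference -0.75, SE 0.15, limma adjusted p = 0.00109, two-sided exact permutation p = 9.74e-05). This call held under all 29 alternatives, with an adjusted p of at most 0.00372.

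Neither gene of acetoacetate use passed the test. *Oxct1*, the CoA transferase that extrahepatic tissues depend on, ran from 5.58 through 6.21 to 7.31 in controls and from 5.55 through 6.09 to 6.97 in mutants. All but 1 of the mutants lay within the control range. Its means were 6.22 ± 0.52 (SD, n = 9) and 6.12 ± 0.45 (SD, n = 10), a difference of -0.10 with a 95% interval from -0.51 to 0.32 (limma adjusted p = 0.836, two-sided exact permutation p = 0.670). *Aacs*, the cytosolic synthetase that feeds acetoacetate into lipid synthesis, was the most variable of the 7 genes in either genotype. It ran from 7.21 through 8.45 to 9.97 in controls and from 7.33 through 8.48 to 9.19 in mutants, so every mutant fell inside the control range. With means of 8.45 ± 0.91 (SD, n = 9) and 8.34 ± 0.73 (SD, n = 10), the interval of the difference of -0.12 reached from -0.78 to 0.54 (limma adjusted p = 0.883, two-sided exact permutation p = 0.757). Both intervals include differences of either sign.

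The largest difference among the 7 was in a transporter. *Slc16a7* codes for MCT2, a carrier with high affinity for pyruvate, lactate and ketone bodies. Its signal ran from 11.29 through a median of 11.53 to 12.27 in controls and from 13.10 through 13.57 to 14.22 in mutants. Every mutant lay above every control. The mean rose from 11.65 ± 0.35 (SD, n = 9) to 13.58 ± 0.32 (SD, n = 10), a difference of 1.93 (SE 0.15) or 3.80-fold (95% interval 3.07 to 4.71, limma adjusted p = 1.59e-09). The two-sided exact permutation p of 1.08e-05 is the smallest that the 92378 splits of the arrays can give. By its p the gene stood 19th of 19505, and 1.48% of all genes had values that did not overlap between the genotypes. All 29 alternatives kept the call, with an adjusted p of at most 0.00146.

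*Slc16a6* codes for MCT7, described in zebrafish as the carrier that exports beta-hydroxybutyrate from hepatocytes. It ran from 6.62 through 7.54 to 8.49 in controls and from 5.58 through 6.67 to 7.36 in mutants. The groups overlapped, although 5 of 10 mutants lay below every control and all 10 below the control median. Its mean fell from 7.53 ± 0.70 (SD, n = 9) to 6.64 ± 0.55 (SD, n = 10), a control signal 1.85-fold that of mutants (95% interval 1.30 to 2.65, log2 difference -0.89, SE 0.25, limma adjusted p = 0.0214, two-sided exact permutation p = 0.00672). With the methods' t-test and the methods' Wilcoxon test the adjusted p was 0.0612 and 0.0699. With single arrays left out the limma adjusted p ran from 0.00825 to 0.04998, so the call was narrowly kept at the upper end.

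*Slc16a1*, the gene of MCT1 and the broadly expressed carrier of lactate, pyruvate and ketone bodies, ran from 10.76 through 11.14 to 11.35 in controls and from 11.08 through 11.47 to 11.73 in mutants. Although 7 of 10 mutants lay above every control, the means of 11.13 ± 0.18 (SD, n = 9) and 11.44 ± 0.24 (SD, n = 10) gave a difference of 0.31 (SE 0.11, 95% interval 0.08 to 0.54) that did not pass the test over all genes (limma adjusted p = 0.0803, two-sided exact permutation p = 0.00562). It did pass with dim genes left out (adjusted p = 0.0348) and without mutant replicate 1 (adjusted p = 0.0453). The 3 transporter genes therefore stood as 1 higher, 1 lower and 1 without a call.

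**Figure D2:**
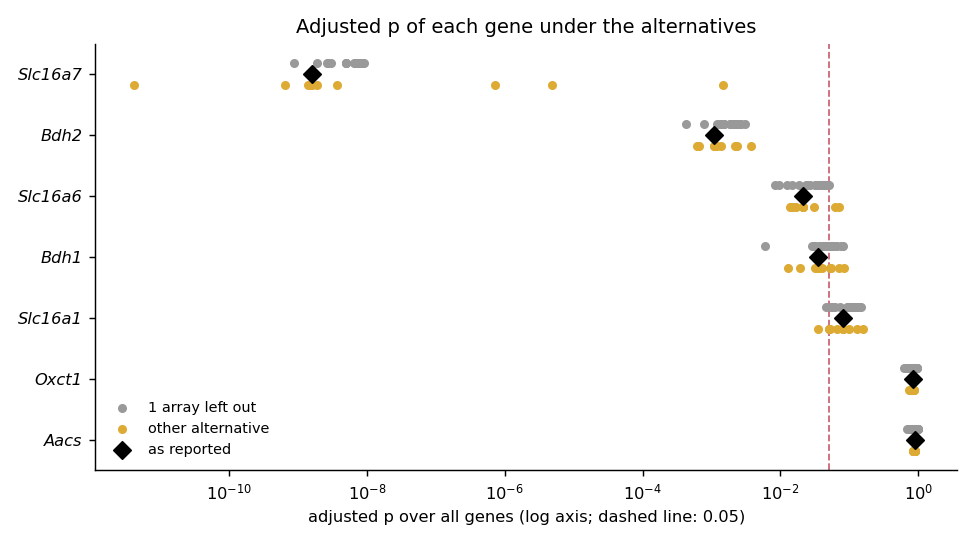
Adjusted p over all genes (x axis, log scale, with the threshold of 0.05 as a dashed line) for each of the 7 genes (y axis), as reported (diamonds), with 1 array left out (grey) and under the other alternatives (yellow). *Slc16a7* and *Bdh2* stay left of the line at every setting, *Bdh1*, *Slc16a6* and *Slc16a1* have points on both sides, and *Oxct1* and *Aacs* stay right of it.

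Relations among the 7 genes from mouse to mouse were looked at within each genotype. Pearson's r and Spearman's rho were computed for 21 pairs in each genotype, 42 relations in all, of which 2 had a raw permutation p of Pearson's r under 0.05 and 0 an adjusted one. With so few mice and 42 relations, only a very strong relation could pass the adjustment, so its absence does not show that the genes vary independently. Only 7 of the 21 pairs had r of the same sign in both genotypes. The strongest relation was between *Oxct1* and *Slc16a6* in controls (n = 9, r = 0.79, exact permutation p = 0.00793, adjusted p = 0.333; rho = 0.77, p = 0.0214, adjusted p = 0.535), and r was 0.66 without the 2 mice farthest from the median of *Oxct1*. In mutants, *Slc16a1* and *Slc16a7* had r = 0.64 (n = 10, permutation p = 0.0407, adjusted p = 0.790; rho = 0.60, p = 0.0735, adjusted p = 0.639), and r = 0.48 without 2 mice.

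For each gene, the 2 genes most like it were found by the lower of the Pearson r within controls and within mutants, over the 10848 other genes detected on all arrays. For *Slc16a7* they were *Emp2*, an epithelial membrane protein gene (r = 0.79 in controls and 0.79 in mutants), and *Abcd2*, a peroxisomal fatty acid carrier gene (r = 0.86 and 0.77), and both also rose in mutants, by 1.55 and 3.79 on the log2 scale. *Bdh1* was most like *Fmr1nb* and *Slc22a4*, with a lower r of 0.72 for each. For *Bdh2* these were *Aph1a* and *Mterf1a*, for *Oxct1* *Syncrip* and *Cse1l*, for *Aacs* *Gca* and *Dpt* and for *Slc16a1* *Gm4952* and *Galnt2*, with a lower r between 0.70 and 0.81. *Slc16a6* had the highest value, 0.86 with *Mtrex*, an RNA helicase gene, followed by *Nop58*. These correlations describe 9 and 10 mice and are the highest of 10848, so they carry no p. *Gm4952* also rose in mutants, by 1.62 (limma adjusted p = 6.23e-06), and *Dpt* fell by 0.77 (limma adjusted p = 0.00406). *Slc16a1* and *Aacs*, which they were most like, were not called.

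The genes around the 7 come from lists of each step. Of the other enzymes of ketogenesis, 2 were measured. *Acat1*, the mitochondrial thiolase at the entry of the pathway, had 14.27 ± 0.15 (SD, n = 9) and 14.31 ± 0.17 (SD, n = 10) and a difference of 0.04 (95% interval -0.16 to 0.25, limma adjusted p = 0.856). *Hmgcll1*, an extramitochondrial lyase gene, differed by -0.05 (95% interval -0.49 to 0.40, adjusted p = 0.937) and was detected in 5 controls and 4 mutants. Thus 0 of these 2 passed.

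Among 6 other enzymes listed for ketone and short acid use, 1 rose and 0 fell, where 4.73% of all genes rose and 5.33% fell. *Acsm5* rose by 0.83 (SE 0.11, 1.77-fold, limma adjusted p = 7.84e-06), and no mutant overlapped the controls, a separation found in 1.48% of all genes. *Acsm5* codes for a medium-chain acyl-CoA synthetase and not for an enzyme specific to ketone bodies. *Oxct2a* and *Oxct2b*, testis paralogs of *Oxct1*, differed by 0.06 (95% interval -0.20 to 0.32) and 0.02 (95% interval -0.33 to 0.37), and *Oxct2a* was detected in 0 controls and 3 mutants. *Acss1*, a mitochondrial acetyl-CoA synthetase gene, differed by 0.40 (95% interval 0.13 to 0.67, adjusted p = 0.0534). *Acsm1* and *Acsm3* differed by 0.11 (95% interval -0.08 to 0.29) and -0.19 (95% interval -0.44 to 0.06). On the cytosolic side, where the product of AACS enters, *Hmgcs1* of the mevalonate pathway rose by 0.83 (SE 0.22, adjusted p = 0.0158) and *Acss2*, which makes acetyl-CoA from acetate, fell by 1.61 (SE 0.30, adjusted p = 0.000705). The other 2 of 4 measured did not pass, among them *Acly*, with a difference of -0.68 (95% interval -1.20 to -0.16, limma adjusted p = 0.0944).

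Of 10 other *Slc16* genes measured, 2 rose, 1 fell and 7 were not called, where 4.73% of all genes rose and 5.33% fell. For comparison, 1.48% of all genes had values that did not overlap between the genotypes. *Slc16a5* ran from 5.63 through 6.02 to 6.62 in controls and from 7.45 through 9.18 to 9.80 in mutants, so every mutant exceeded every control. Its difference of 2.75 (SE 0.26, 6.71-fold, limma adjusted p = 4.62e-08) was larger in size than that of *Slc16a7*, a contrast between probes that was not tested. *Slc16a12*, the gene of a creatine transporter, rose by 0.67 (SE 0.14, 1.59-fold, adjusted p = 0.00231), and 8 of 10 mutants exceeded the highest control. *Slc16a10*, the gene of the aromatic amino acid carrier TAT1, fell by 0.70 (SE 0.14, adjusted p = 0.00110), and 9 of 10 mutants were under the lowest control. *Slc16a3*, *Slc16a4* and *Slc16a8* were detected on no array.

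**Figure D3:**
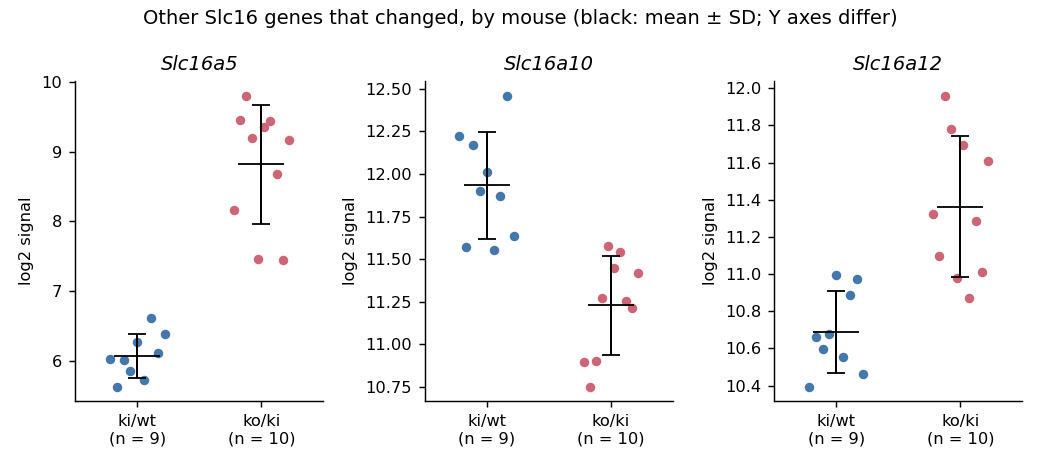
Log2 signal (y axis, separate for each gene) of the 3 other *Slc16* genes that changed, 1 point per control (ki/wt) or mutant (ko/ki) mouse, with the mean and SD in black. All mutants lie above the controls for *Slc16a5*, 8 of 10 do for *Slc16a12*, and 9 of 10 lie below them for *Slc16a10*.

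The partners of these carriers were not called. *Bsg*, which codes for basigin, the subunit that takes MCT1 to the membrane, had 16.66 ± 0.07 (SD, n = 9) and 16.65 ± 0.15 (SD, n = 10), a difference of -0.01 with a 95% interval from -0.20 to 0.17. *Emb*, the gene of embigin, a partner of MCT2, differed by 0.14 (95% interval -0.28 to 0.57) and was detected in 2 controls and 4 mutants. Of 6 such subunits and carriers measured, 0 passed, where 10.1% of all genes passed in either direction. Only 3 of the 6 were detected on all arrays. *Mpc1*, 1 of the other carriers, differed by 0.29 (95% interval 0.03 to 0.55, limma adjusted p = 0.158).

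Upstream of ketogenesis, 5 of 15 genes that supply acetyl-CoA from fatty acids rose and 0 fell, against 4.73% and 5.33% of all genes, with a median difference of 0.36. They were *Slc25a20*, the carnitine carrier gene (0.92, SE 0.16, limma adjusted p = 0.000196), *Acadl* (0.76, SE 0.11, adjusted p = 4.05e-05) and *Acadm* (0.75, SE 0.15, adjusted p = 0.00154), dehydrogenases of beta-oxidation, and *Hadhb* and *Hadh*. *Cpt1a*, which admits fatty acids to the mitochondrion, had a difference of 0.44 (95% interval 0.09 to 0.78, adjusted p = 0.102). Among 14 regulators measured, *Pparg*, *Ppargc1a* and *Fgf21* rose, by 3.25, 1.03 and 1.63 (*Fgf21* was detected in 3 of 9 controls and in 10 of 10 mutants), and *Insig2*, which holds back the processing of sterol regulatory proteins, fell by 0.93. *Ppara*, the receptor that switches on ketogenic genes in fasting, differed by 0.11 (95% interval -0.21 to 0.43, adjusted p = 0.747).

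**Figure D4:**
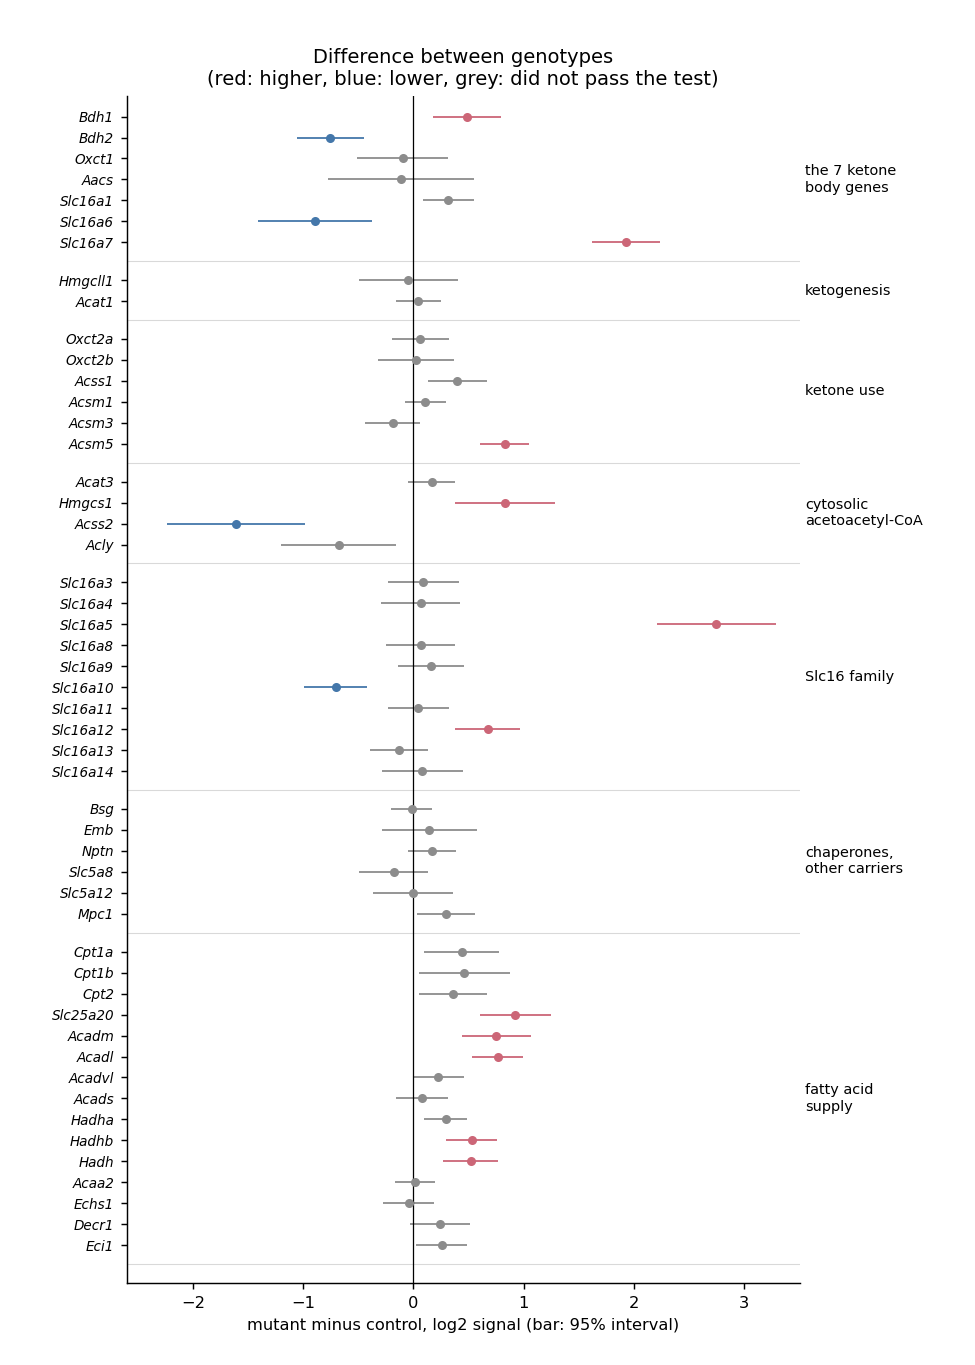
Difference between mutants and controls in log2 signal (x axis, with bars for 95% intervals) for the 7 ketone body genes and the measured genes of 6 lists (y axis: ketogenesis, ketone use, cytosolic acetoacetyl-CoA, the *Slc16* family, its partners and other carriers, and fatty acid supply; the regulators are not plotted). Red marks genes that rose, blue those that fell and grey those that did not pass the test; *Slc16a7* (1.93) and *Slc16a5* (2.75) lie farthest to the right of the genes plotted, and *Acss2* (-1.61) farthest to the left.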

How the data were processed

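Amplified total liver RNA was hybridized by the authors, 1 array per mouse. Their processing used the array maker's SST-RMA method, a form of robust multiarray averaging that normalizes all arrays together. The deposited values are on a log2 scale, and a deposited p-value gives the detection of each probe set above background. A second deposited table held the same log2 values to within 0.0005. No further normalization was applied.

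Of 22206 probe sets, 19572 name 1 gene and 2634 are unnamed in the annotation used here. Where a gene had more than 1 probe set (55 genes), the brightest on average was kept, which left 19505 genes. No dim gene was filtered, and the number of arrays limits the precision. Arrays correlated with each other between 0.975 and 0.989.

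Mutants and controls were compared over all genes in a two-sided test with limma 3.58.1 (lmFit, eBayes) under R 4.3.3 at a threshold of 0.05, and the difference of single genes by an exact permutation test in Python 3.11.15 with scipy 1.17.1. The limma procedure was tested on simulated data. It called 25 of 50 genes given a log2 difference of 0.5, 46 of 50 given 1 and 9 of 19305 given none. Differences of 0.5 or less can therefore be missed. Named genes are the 7 ketone body genes, the enzymes of ketogenesis and ketone use, *Slc16* genes and partners that pass the test, up to 3 others of each list by smallest adjusted p and the 2 genes most like each of the 7. Outside this rule, some genes were named after their values were seen. They were *Cpt1a*, *Ppara*, *Ppargc1a*, *Hadhb*, *Hadh*, *Bsg*, *Emb*, *Mpc1*, *Ldha*, *Pdk4*, genes detected on no array and the markers that changed. The genes and lists were chosen with earlier results of these data known. Alternatives were limma with trend and robust settings, the methods' t-test and Wilcoxon test, the second table, median centring, quantile normalization, dim genes left out, array weights, a replicate block, the mean over probe sets and each array left out. Promoter windows are from RefSeq on GRCm38.p6.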

Additional observations from a re-analysis of the deposited data

Results flagged for a closer look

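Among 96 sets of values checked, both genotypes of each gene named by rule, 4 held a mouse set apart from the rest of its genotype, and none was among the 7 ketone body genes. Chance alone sets a mouse apart in about 1 of 20 such sets. For *Acat1* control replicate 7 was the lowest of 9 controls, at 13.91. The same mouse was the lowest control for *Insig2*, at 11.96. For *Acsm5* mutant replicate 8 was the highest of 10 mutants, at 13.21. *Pdk2*, the gene of a pyruvate dehydrogenase kinase, had its lowest mutant value in mutant replicate 9, at 10.95.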

How the results depend on the processing

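*Bdh2*, *Oxct1*, *Aacs* and *Slc16a7* kept their side of the threshold under all 29 alternatives. For *Oxct1* and *Aacs*, which were not called, leaving out single arrays moved the difference from -0.19 to 0.04 and from -0.27 to 0.07. *Bdh1* kept its call in 16 of 29, and its adjusted p ran from 0.00592 to 0.0838. Its difference was 0.49 in the methods' t-test and the methods' Wilcoxon test, where the call was lost (adjusted p = 0.0536 and 0.0838), 0.45 with median centring (adjusted p = 0.0522), and between 0.42 and 0.58 with single arrays left out (adjusted p 0.00592 to 0.0806). *Slc16a6* lost its call in the methods' t-test and Wilcoxon test (difference -0.89 in both, adjusted p = 0.0612 and 0.0699) and kept it in the other 27. Its limma adjusted p reached 0.04998 with single arrays left out. *Slc16a1* gained a call with dim genes left out (0.31, adjusted p = 0.0348), where fewer genes were tested, and without mutant replicate 1 (0.35), and over the single arrays left out its difference lay between 0.27 and 0.35 (adjusted p 0.0453 to 0.149). The count of the 7 genes that rose, 2 as reported, was therefore 1 in the t-test, the Wilcoxon test, median centring and the replicate block, 1 to 2 with single arrays left out and 3 with dim genes left out, and the count that fell was 1 in the t-test and Wilcoxon test. The cause of these changes was not tested further.

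The labels number the replicates in each genotype and state no pairing. Same-numbered mice did not deviate together (correlations of -0.09 to 0.06 over all genes, with 0 of 9 controls closest to the mutant of their own number). The numbers thus gave no sign of pairing, although this check cannot exclude a weak shared effect. With the replicate block, which leaves out mutant replicate 10, the *Bdh1* difference was 0.48 and its call was lost (adjusted p = 0.0708), *Slc16a7* differed by 1.90, *Bdh2* by -0.76 and *Slc16a6* by -0.77 with their calls kept, and 1488 genes were called in place of 1962. Median centring moved the median difference of all genes by -0.04 and called 794 genes higher and 1244 lower, against 923 and 1039.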

Other observations

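Of 8 genes of lactate dehydrogenases and pyruvate dehydrogenase kinases, 0 rose and 1 fell, where 10.1% of all genes passed in either direction. The subunit genes of pyruvate dehydrogenase itself were not in this list. *Ldhd*, the gene of mitochondrial D-lactate dehydrogenase, ran from 10.99 to 12.20 in controls and from 10.44 to 11.07 in mutants and fell by 0.74 on the log2 scale (SE 0.13, limma adjusted p = 0.000416). *Ldha*, the main lactate dehydrogenase gene of liver, differed by 0.23 (95% interval -0.01 to 0.48, adjusted p = 0.259), and *Pdk4*, a pyruvate dehydrogenase kinase gene that rises in fasting, by 0.55 (95% interval -0.20 to 1.30, adjusted p = 0.400). The kinase genes *Pdk1* and *Pdk2* lay lower in mutants without a call. They differed by -0.45 (95% interval -0.78 to -0.12, limma adjusted p = 0.0747) and -0.35 (95% interval -0.69 to -0.0006, limma adjusted p = 0.223).

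Of 4 receptors for ketone bodies and short-chain acids measured, 0 passed the test, where 10.1% of all genes passed in either direction. On all arrays, 0 of the 4 were detected. *Hcar1* was detected in 1 control and 2 mutants and *Ffar3* in 1 control and 3 mutants, so a change in them may not show. *Hcar2*, the receptor for beta-hydroxybutyrate, differed by 0.13 (95% interval -0.20 to 0.46, adjusted p = 0.696) and was detected in 8 of 9 controls and 10 of 10 mutants.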
